A study of Mus musculus with 2 samples.

Results

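Heat shock proteins of the cytosol and of mitochondria fold new, imported and damaged proteins, and 10 of their genes are described here in macrophages given a mitochondria-targeting dye. They are the transcription factor gene *Hsf1*, the Hsp70 genes *Hspa1a*, *Hspa1b* and *Hspa8*, the Hsp70 partners *Hsph1* and *Dnajb1*, the Hsp90 gene *Hsp90aa1*, and the mitochondrial chaperone genes *Hspa9*, *Hspd1* and *Hspe1*. They were chosen by name, for their function and compartment, and every probe whose accession belonged to 1 of them was read. Of the 10 genes, 9 had a named probe, and all 9 were well above background on both arrays, among 16885 such genes of 20655 with a named probe. No probe carried the accession of *Hspa1b*, so its expression was not analysed here.

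RAW264.7 is an established mouse macrophage line that was raised from an ascites tumour induced by Abelson murine leukemia virus in an adult male BALB/c animal, so both conditions share its transformed background. Cells were kept in medium with heat-inactivated serum and received either vehicle or IR-61, a mitochondria-targeting near-infrared dye, for 24 h, at a dose of 10 μM according to the figure legend of the study. Total RNA of 1 culture per condition was labelled with Cy3 and hybridised to 1 Agilent mouse array each, and both arrays were on the same slide and read in the same scan. The comparison asks how the dye changes macrophage gene expression, and with 1 array per condition it has no replicate check and no test.

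Signals are the background-corrected spot intensities of the scanner software. For a difference, given throughout as IR-61 minus vehicle on the log2 scale, the 75th percentile of each array, 10.30 with vehicle and 10.79 with IR-61, was first subtracted from the log2 signal. These percentiles lie 0.49 apart, so a signal can be higher on the IR-61 array while the scaled difference is below 0. Each probe of these genes was printed once, so its error was taken from probes printed many times on the same arrays. The SD between spots, combined over both arrays, was 0.094 for a difference between bright probes, with a log2 signal above 10 on both arrays, and 0.229 between 6 and 10. It covers noise within an array only. Over all measured genes the median difference was 0.10, with an SD of 0.44 and quartiles of −0.15 and 0.34, and 38.8% of the genes were below 0. Without scaling every difference is higher by 0.49, and the median of all genes was 0.59. Another alternative, normexp background correction of the local backgrounds as deposited, gave a median of 0.73 and turned the sign of 6 of the 9 genes, and in it 4 spots of the IR-61 array had a local background brighter than the spot itself. Normexp after replacing those 4 backgrounds turned the sign of 1, *Hsp90aa1*.

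Heat shock proteins are molecular chaperones, which bind unfolded protein and release it for folding at the cost of ATP. In resting cells Hsf1 is held inactive, and unfolded protein frees it to bind heat shock elements, repeats of a short unit in the promoters of chaperone genes. In macrophages, as in other cells, the cytosolic Hsp70 and Hsp90 machines and the Hsp60 chamber of mitochondria are present without stress, while *Hspa1a* and *Hspa1b* are strongly induced by heat.

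Past 2-fold, IR-61 gave a lower value for 1 of 9 members, *Hspa1a*, beside 1.39% of all measured genes, and a higher value for 0 of 9, beside 1.99% of all measured genes. These counts became 0 lower and 0 higher without scaling and with normexp after the 4 replacements. With normexp as deposited 1 member was lower, *Hspa9*, and 1 higher, *Hspa1a*. Over all 16885 measured genes 72 were lower and 2156 higher by 2-fold without scaling, and 463 and 7827 with normexp as deposited. With normexp after the 4 replacements 149 of them were lower and 124 higher. At a limit of 1.5-fold the main counts were again 1 lower and 0 higher, beside 5.69% and 9.79% of all genes. By sign alone 4 members were lower and 5 higher, or 44.4% lower against 38.8% of all measured genes. Relative to the median of all genes 5 of the 9 were lower. Of the 9, *Hspa8*, *Hsph1* and *Hspa9* turned above 0 without scaling and *Hsp90aa1* below 0 under scaling by the median. With normexp as deposited 6 members changed sign. The median of the members was 0.04, −0.04 under scaling by the median of each array, 0.53 without scaling and −0.37 with normexp as deposited. The remaining 8 members lay between −0.48 and 0.34. The members thus lay on both sides of the median of all genes.

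*Hsf1* encodes the master regulator of the heat shock response. Its signal was 3983 with vehicle and 7087 with IR-61, a difference of 0.34, or 1.27-fold higher, which became −0.22 with normexp as deposited. This was 3.6 times the SD between spots, and 75.7% of all measured genes had a lower difference. *Hsf2*, which encodes a related factor, had a difference of 0.16. *Hsbp1*, whose product binds the trimerization domain of Hsf1 and restrains it, had a signal of 6118 with vehicle and 5698 with IR-61, a difference of −0.59 and the lowest in the list of the HSF family and its regulators. The highest was that of *Hsf2bp*, at 0.67, from a dim probe with signals of 25.9 and 57.8 and an SD from spots of 0.456. In that list 7 of 9 genes were measured, *Hsf3* and *Hsf5* being too dim on both arrays. Of the 7 genes 3 were lower and 4 higher, or 42.9% lower against 38.8% of all genes. The list median was 0.16, −0.05 with the mean of all probes of a gene and −0.06 without the filter on dim probes.

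*Hspa1a* encodes the stress-inducible Hsp70 of the cytosol. The signal of its only probe was 99.5 with vehicle and 67.9 with IR-61, on arrays where the dimmest probe called well above background had 12.8 and 15.0. The scaled difference was −1.04, or 2.06-fold lower, which is 4.5 times the SD of 0.229 between spots. That put it at rank 212 from the lowest among all measured genes. The IR-61 signal lay just above a log2 signal of 6, below which spots of that array had an SD of 0.296 instead of 0.144. The SD of 0.229 may thus be too small for this probe. *Hspa1a* was lower by 2-fold or more under 8 of 11 alternative settings. Among them, keeping outlier spots, averaging probes and dropping the dim filter left its only probe, which passed every filter, at −1.04. Quantile normalization and the deposited log2 values both gave −1.15, and nearly equal values for every member, so they are hardly separate checks. The difference was −0.55 without scaling and −0.71 with normexp background correction after the 4 local backgrounds had been replaced. With normexp on the backgrounds as deposited the direction turned, to 2.39. *Hspa1a* and *Hspa1b* are near-identical copies, and RNA of either may bind the same probe, which was not tested. The main value thus lies near the limit at a low signal, its size depends on the scaling and its size and direction on the background correction.

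*Hspa8* encodes the constitutive Hsp70, Hsc70, and was read by 3 probes. The brightest had a signal of 108400 with vehicle and 137330 with IR-61, a difference of −0.15. The next had 49840 and 53490, a difference of −0.39. The last had 11490 and 9611, a difference of −0.75, or 1.68-fold lower. All 3 probes were below the all-gene median, but they differed from each other by 0.60, far more than the SD of 0.094 from spots. In the 4160 genes with several measured probes the median of that range was 0.37. This comparison was made after the values had been seen and was not matched for the number of probes. The mean of the 3 probes was −0.43. The brightest probe was −0.02 under quantile normalization and −0.96 with normexp as deposited, and it turned to 0.34 without scaling.

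*Hsph1* encodes Hsp110, which exchanges the nucleotide of Hsp70 and so lets it release its substrate. Its probes had 2269 and 2789, and 1189 and 1468, with vehicle and IR-61. Their differences were −0.19 and −0.18, or 1.14-fold lower each, and the first became 0.30 without scaling and −0.37 with normexp as deposited. The probes gave the same small difference, 2.0 times the SD from spots and smaller than the SD of all genes.

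*Dnajb1* encodes the Hsp40 cochaperone that brings substrates to Hsp70 and stimulates its ATPase. Its signal was 7379 with vehicle and 12727 with IR-61, a difference of 0.30, or 1.23-fold higher, with 71.6% of all measured genes lower, and −0.37 with normexp as deposited. *Hspa1a* and *Dnajb1*, both classical targets of Hsf1, thus lay on opposite sides of 0 under the main scaling and under all 11 alternatives, with both signs turned in normexp as deposited. Each has a single probe, so the alternatives on probes, outlier spots and dim probes left both values unchanged.

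*Hsp90aa1* encodes the inducible Hsp90 of the cytosol, which matures kinases and steroid receptors. Its signal was 38467 with vehicle and 55455 with IR-61, a difference of 0.04 that became −0.04 under scaling by the median, 0.53 without scaling and −0.80 with normexp as deposited. Its constitutive counterpart *Hsp90ab1* had 41702 and 59769, a difference of 0.03. Under the main scaling neither Hsp90 gene differed by more than the SD between spots.

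**Figure D1:**
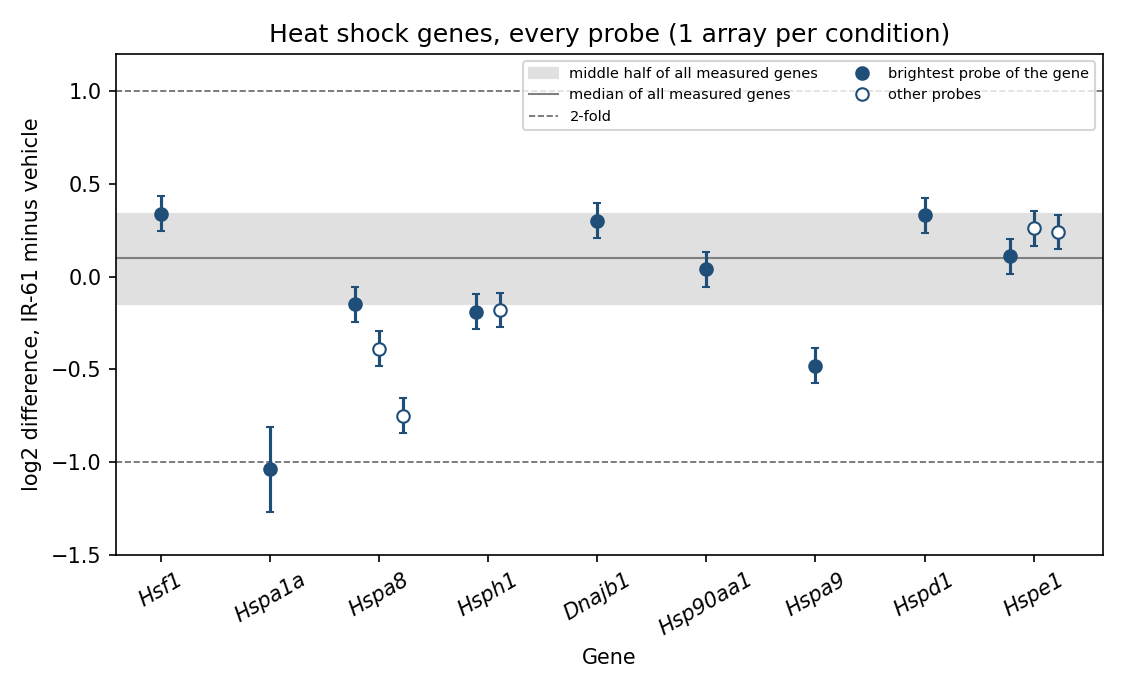
Log2 difference, IR-61 minus vehicle under the main scaling, of each of the 14 probes of the 9 measured genes, with bars of 1 SD expected from spots and filled points for the brightest probe of a gene. The band holds the middle of all measured genes, from −0.15 to 0.34, and only the probe of *Hspa1a*, at −1.04, lies beyond 2-fold. Without scaling the brightest probes of *Hspa8* and *Hsph1* and the probe of *Hspa9* turn above 0, and with normexp as deposited *Hspa1a* becomes 2.39.

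*Hspa9* encodes mortalin, the Hsp70 of the mitochondrial matrix, which pulls proteins in through the import channel and folds them. Its signal was 9798 with vehicle and 9871 with IR-61, a difference of −0.48, or 1.39-fold lower, and 8.4% of all measured genes were lower. The difference was 5.1 times the SD from spots and became 0.01 without scaling and −1.03, past 2-fold, with normexp as deposited.

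*Hspd1* encodes Hsp60, whose rings form the folding chamber of the matrix. Its signal was 39347 with vehicle and 69372 with IR-61, a difference of 0.33, or 1.26-fold higher. *Hspe1* encodes Hsp10, the lid of that chamber, and was read by 3 probes with differences of 0.11, 0.26 and 0.24. The brightest of them had 26417 with vehicle and 40135 with IR-61. The genes of chamber and lid were both higher, with −0.33 and −0.62 under normexp as deposited, and that of mortalin was lower except without scaling. Relative to the median of all genes the differences were 0.23 for *Hspd1*, 0.02 for *Hspe1* and −0.58 for *Hspa9*.

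The other mitochondrial chaperones, which include import motor subunits and iron-sulphur cluster chaperones, were all measured, 14 of 14. Of these 5 were lower and 9 higher, while 8 of the 14 were below the median of all genes. The median of the list was 0.07 and became −0.01 under scaling by the median and −0.36 with normexp as deposited. *Trap1*, the Hsp90 of mitochondria, was lowest, with a signal of 1467 with vehicle and 1328 with IR-61 and a difference of −0.63. *Hscb*, a J-domain partner in iron-sulphur cluster assembly, was highest at 0.57. Of 8 mitochondrial proteases, which remove what chaperones cannot fold, 5 were lower and 3 higher, or 62.5% lower against 38.8% of all genes. Their median of −0.03 became 0.46 without scaling and −0.27 with normexp as deposited. They ran from −0.31 for *Oma1*, a stress-activated inner membrane protease, to 0.61 for *Afg3l2*, a subunit of the matrix-facing AAA protease.

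Other genes of the Hsp70 and Hsp110 families had a median of 0.18, or −0.26 with normexp as deposited. Of 7 measured genes 1 was lower and 6 higher, or 14.3% lower against 38.8% of all genes. Relative to the median of all genes 3 of the 7 were lower, and the median of the list was 0.08 above it. Differences ran from −0.05 for *Hspa4* to 0.35 for *Hspa12b*, whose signals were low at 94.7 and 169, and *Hspa12a* was not measured. Of 14 measured J-domain genes, whose products recruit Hsp70, 4 were lower and 10 higher, while 8 of the 14 were below the median of all genes. The median of the list was 0.06 and became −0.02 under scaling by the median and −0.27 with normexp as deposited. *Dnajb2* was lowest at −0.70, from low signals of 337 and 292 with an SD from spots of 0.229. Its other, dimmer probe was at −0.16. *Dnajb6* was highest at 0.45, by its brightest probe. *Dnajb5* had no named probe. Of 10 Hsp70 cofactors 6 were lower and 4 higher, or 60.0% lower against 38.8% of all genes. Their median of −0.09 became 0.40 without scaling and −0.36 with normexp as deposited. *Stub1*, the ubiquitin ligase that marks Hsp70 clients for degradation, was lowest, with 5060 with vehicle and 4471 with IR-61 and a difference of −0.67. *Bag5*, a nucleotide exchange factor, was highest at 0.47. No gene of these lists passed 2-fold under the main scaling, beside 1.39% lower and 1.99% higher of all measured genes.

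Hsp90 and its cochaperones had 5 of 16 genes lower and 11 higher, or 31.2% lower against 38.8% of all genes. Relative to the median of all genes 7 of the 16 were lower. The median of the list was 0.15, or 0.05 above that of all genes, and became −0.42 with normexp as deposited. Differences ran from −0.48 for *Cdc37l1* to 0.76 for *Ahsa2*, whose signals were low at 41.5 and 98.3. The small heat shock proteins, which hold unfolded protein without ATP, had 4 of 10 lower and 6 higher. That is 40.0% lower against 38.8% of all genes. Their median of 0.16 became 1.22 with normexp as deposited and 0.00 with normexp after the 4 replacements. They ran from −0.17 for *Hspb8*, with low signals of 93.6 and 116.4, to 0.69 for *Hspb3*, whose signals of 17.5 and 39.7 were near the floor.

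The chaperonin TRiC, a cytosolic ring that folds actin and tubulin, and its feeder prefoldin had the lowest median of the 11 chaperone lists under the main scaling, −0.20, and 13 of 15 genes were lower, or 86.7% against 38.8% of all genes. The median turned to 0.29 without scaling and became −0.85 with normexp as deposited. Relative to the median of all genes it was −0.30 in the main setting and −1.58 with normexp as deposited. *Cct3* was lowest, with 2460 with vehicle and 1870 with IR-61 and a difference of −0.88. *Pfdn4* was highest at 0.33. No gene of the list passed 2-fold under the main scaling, beside 1.39% lower and 1.99% higher of all measured genes.

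The list of inducible heat shock response genes, which shares members with the others, had 11 of 25 lower and 14 higher. That is 44.0% lower against 38.8% of all genes, and 16 of the 25 were below the median of all genes. The median of the list was 0.00 and became −0.08 under scaling by the median, 0.49 without scaling and −0.37 with normexp as deposited. *Hspa1a* was its lowest and *Serpinh1*, the collagen chaperone Hsp47, its highest, with 11113 with vehicle and 24605 with IR-61 and a difference of 0.66. Of the 127 measured genes in the members and the 11 lists, only *Hspa1a* passed 2-fold under the main scaling. Over all measured genes 1.39% were lower and 1.99% higher by that limit. Without scaling 0 were lower and 7 higher by 2-fold, beside 72 and 2156 of all 16885 measured genes. With normexp as deposited 5 were lower and 18 higher, *Hspa1a* among the latter, beside 463 and 7827 of all genes. With normexp after the 4 replacements none passed, beside 149 lower and 124 higher of all genes.

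**Figure D2:**
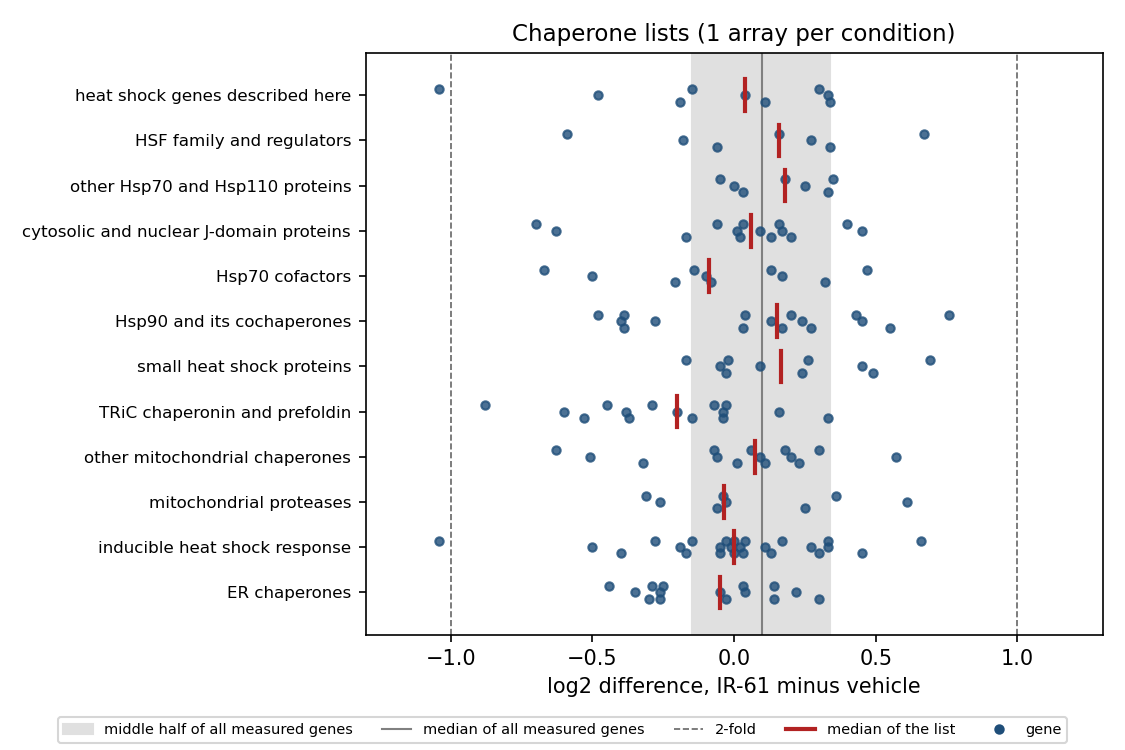
Log2 difference, IR-61 minus vehicle, of each measured gene (points, by its brightest probe) in the members and the 11 chaperone lists, with the median of each list as a red bar and the middle of all measured genes as a band from −0.15 to 0.34. The median of TRiC and prefoldin is leftmost at −0.20. Only *Hspa1a* lies beyond 2-fold, beside 1.39% lower and 1.99% higher of all measured genes. Without scaling that median turns to 0.29 and *Hspa1a* is at −0.55. In that setting 7 genes of the lists are higher by 2-fold, beside 2156 of all 16885 measured genes.

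The Hsp70 and Hsp90 families also have members in the endoplasmic reticulum. *Hspa5*, which encodes the Hsp70 BiP, had 69324 with vehicle and 99854 with IR-61, a difference of 0.04. *Hsp90b1*, which encodes the Hsp90 Grp94, had 47047 and 72701, a difference of 0.14. Of 15 genes for chaperones of that compartment 9 were lower and 6 higher, or 60.0% lower against 38.8% of all genes, with a median of −0.05 that became 0.44 without scaling, −0.17 with the mean of the probes and −0.68 with normexp as deposited. That median was −0.15 relative to the median of all genes, and the differences ran from −0.44 for *Dnajc3* to 0.30 for *Canx*.

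Of 10 macrophage markers *Cd68* had no named probe and 9 were well above background on both arrays. Of these 5 were lower and 4 higher, with a median of −0.04. *Csf1r* had a signal of 95036 with vehicle and 139210 with IR-61 by its brightest probe, a difference of 0.06. Its dimmer probes had differences of −0.12 and −0.64. *Adgre1* had 52489 with vehicle and 149990 with IR-61. *Adgre1* was higher by 1.03 and *Spi1* lower, at −0.83, while *Itgam*, *Fcgr1*, *Fcgr3*, *Lyz2*, *Mertk* and *Ptprc* had differences of 0.65, 0.99, −0.61, −0.18, −0.04 and −0.09. Their summed scaled signal was 163.7 with vehicle and 216.3 with IR-61, of which *Adgre1* gave 41.6 and 84.6, and without it the sums were 122 and 132. For 8 T and B cell markers, all measured, it was 2.36 and 2.11, with *Cd4* the brightest, *Ms4a1* at −1.46, *Cd79b* at −1.09 and *Cd8a* at 0.16. For 11 markers of fibroblasts, epithelium and endothelium, of which 9 were measured while *Epcam* and *Cdh1* were too dim on both arrays, it was 40.8 and 52.4. Of the 9 markers 5 were lower and 4 higher, with a median of −0.10. *Col1a1*, the brightest on both arrays, had 27148 with vehicle and 58670 with IR-61, a difference of 0.62, and without it the summed scaled signal was 19.3 on each array. *Krt18* was lowest at −0.51. Since probes differ in brightness, the sums are not compared between lists, and the brightest marker need not have the most RNA. The part of these markers in the results was not tested.

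*Hspd1* and *Hspe1* lie head to head and *Hspa1a* was the member past 2-fold, so the RefSeq promoters of the members in GRCm38.p6 were searched for the heat shock element, over the 250 bases before each start. The letters were GAANNTTC or TTCNNGAA for a pair of units and GAANNTTCNNGAA or TTCNNGAANNTTC for 3 units, each read with its reverse complement, and the longer letters contain the shorter. The pair was in 12.8% of 32851 windows of all genes, and the 3 units in 0.466%. The 6 members with a listed window, *Hspa1a*, *Hspa1b*, *Hsph1*, *Dnajb1*, *Hspd1* and *Hspe1*, had 9 windows, of which 6 held the pair and 2 the 3 units, and *Hsf1*, *Hspa8*, *Hsp90aa1* and *Hspa9* had none listed. Some of these windows overlap, and the 6 windows hold 4 distinct sites and the 2 windows 1, so the shares of all windows are given as background only. Between the *Hspe1* start and 1 listed start of *Hspd1* lie 215 bases, and the same block of 18 bases holds the matches of both promoters. The window of the other listed *Hspd1* start holds none. The block of 18 bases lies at chr1:55088059-55088076, 72 to 89 bases before the *Hspe1* start, and is given on the strand of *Hspe1*.
Hspd1 and Hspe1 block: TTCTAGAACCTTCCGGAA
The windows of *Hspa1a*, chr17:34972157-34972406, and *Hspa1b*, chr17:34959239-34959488, both on the minus strand, are shown to compare the promoters of these copies. They agree at 247 of 250 bases, and the capitals mark the match, 97 to 104 bases before the start in each. The match in *Hsph1* is TTCTCGAA, the same site in both of its windows, and the *Dnajb1* windows hold none. A match describes the letters and is no measurement of Hsf1 binding.
Hspa1a: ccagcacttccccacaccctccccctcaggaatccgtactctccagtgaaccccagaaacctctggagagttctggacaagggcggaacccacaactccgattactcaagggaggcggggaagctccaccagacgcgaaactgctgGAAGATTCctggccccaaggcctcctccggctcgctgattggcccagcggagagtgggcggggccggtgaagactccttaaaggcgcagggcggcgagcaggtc
Hspa1b: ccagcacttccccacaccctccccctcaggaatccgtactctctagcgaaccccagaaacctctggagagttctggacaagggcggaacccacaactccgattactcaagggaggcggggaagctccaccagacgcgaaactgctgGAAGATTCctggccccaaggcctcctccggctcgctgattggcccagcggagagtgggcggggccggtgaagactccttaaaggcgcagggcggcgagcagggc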

How the data were processed

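The authors treated RAW264.7 cells, extracted RNA, hybridised it to 1-colour Agilent arrays and deposited spot intensity values, background-corrected within the array by Agilent Feature Extraction (version 11.0.1.1 in the file headers, 11.0.0.1 in the submitters' processing notes, and another in the study's methods), without scaling between arrays. Other columns used were the deposited 0 or 1 flags for outliers, saturation, controls and signal well above background. The deposited log2 table, whose making is not given in the sources used here, served as an alternative, with equal quartiles in both columns and a median of 7.15.

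Controls were left out, as were 124 outlier spots with vehicle and 139 with IR-61, none was saturated, and spots of a probe were averaged on log2. Well above background were 77.6% of probes with vehicle and 81.2% with IR-61. Of 39419 probes 27224 were named by accession through RefSeq (GRCm38.p6, names only). A gene took its brightest probe, and 2 genes outside the lists counted as not measured although another of their probes was. A gene was measured when well above background on both arrays. With 1 array per condition, the number of arrays limits precision.

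The members and lists were chosen with earlier results of these data known. Genes named are the members, the lowest and highest measured gene of each list, those past 2-fold, *Hspa5* and *Hsp90b1*, the macrophage markers and the brightest other marker. *Hsf2* and *Hsp90ab1* were added for their role after their values were seen. Alternatives covered scaling, background, probes, filters and limits. Scripts, tested on simulated data, used Python 3.11.15, numpy 2.4.6, pandas 2.3.3, matplotlib 3.10.9, R 4.3.3 and limma 3.58.1.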

Additional observations from a re-analysis of the deposited data

How the results depend on the processing

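No paired analysis was possible because there was a single array for vehicle and a single array for IR-61. Scaling by the median or by detected probes, cyclic loess and outlier spots kept moved no result beyond its SD from spots (for a median of genes, the median such SD) and no count by over 1.5 times. Quantile normalization and the deposited log2 values moved 1 each, *Hspa8*, to −0.02. The split of genes past 2-fold was 235 lower and 336 higher, with 41.2% lower, and became 295 and 249 (54.2% lower) under scaling by the median, 279 and 257 (52.1%) under quantile normalization, 279 and 242 (53.6%) under loess and 281 and 266 (51.4%) with the deposited values. Without scaling 72 were lower and 2156 higher (3.2%), the members had 0 lower by 2-fold, and *Hsf1*, *Hspa1a*, *Hspa8*, *Hsph1*, *Dnajb1*, *Hsp90aa1*, *Hspa9*, *Hspd1* and *Hspe1* had differences of 0.83, −0.55, 0.34, 0.30, 0.79, 0.53, 0.01, 0.82 and 0.60, with a median of 0.53. The list medians without scaling were 0.65 for the HSF family, 0.67 for other Hsp70 and Hsp110 genes, 0.55 for J-domain genes, 0.40 for Hsp70 cofactors, 0.64 for Hsp90 and cochaperones, 0.65 for small heat shock proteins, 0.29 for TRiC and prefoldin, 0.56 for other mitochondrial chaperones, 0.46 for proteases, 0.49 for the inducible list and 0.44 for ER chaperones, each higher by the 0.49 between the arrays.

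Normexp (offset 50) was planned for local backgrounds as deposited. In 4 spots of IR-61 the local background exceeded the spot, and the fitted background mean was −1571 with them and 12.7 after they were given the median background, an alternative chosen after seeing the data. As planned, *Hspa1a* reversed to 2.39, and *Hsf1*, *Hspa8*, *Hsph1*, *Dnajb1*, *Hsp90aa1*, *Hspa9*, *Hspd1* and *Hspe1* became −0.22, −0.96, −0.37, −0.37, −0.80, −1.03, −0.33 and −0.62, with a median of −0.37, 1 member higher by 2-fold, *Hspa1a*, and 1 lower, *Hspa9* in its place. The list medians became −0.26 for other Hsp70 and Hsp110 genes, −0.27 for J-domain genes, −0.36 for cofactors, −0.42 for Hsp90, 1.22 for small heat shock proteins, −0.85 for TRiC and prefoldin, −0.36 for other mitochondrial chaperones, −0.27 for proteases, −0.37 for the inducible list and −0.68 for ER chaperones, and 463 genes were lower and 7827 higher. With the backgrounds replaced *Hspa1a* was −0.71 and *Hspd1* 0.45, 0 members were lower by 2-fold, the median of the HSF family was −0.03, and 149 genes were lower and 124 higher. With the mean of the probes *Hspa8* was −0.43, the HSF family −0.05 and ER chaperones −0.17. Without the filter on dim probes the HSF family was −0.06, and 440 genes were lower and 921 higher. At 1.5-fold 960 genes were lower and 1653 higher, and at 3-fold 64 and 50, with 0 members lower. Beyond the construction of each setting the cause was not tested. The probe of *Hspa1a* had a signal of 99.5 with vehicle and 67.9 with IR-61, over a lowest signal well above background of 12.8 and 15.0.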

Other observations

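Probes for different transcripts of the J-domain gene *Dnajb6*, whose product keeps aggregation-prone proteins soluble, went opposite ways, a pattern chosen after its values were seen. Of its 4 probes, those of 1 listed transcript had signals of 11616 and 10872 with vehicle and 22191 and 21053 with IR-61, with differences of 0.45 and 0.47. Those of another transcript had 3117 and 2550 with vehicle and 2438 and 2154 with IR-61, with differences of −0.84 and −0.73. The range of 1.31 among the 4 probes was larger than in 97.7% of the 4160 genes with several measured probes, and the SD of each difference from spots was 0.094. That comparison was not matched for the number of probes, with which a range can grow. *Grpel2*, a nucleotide exchange factor of mitochondrial Hsp70, was read by 2 dimmer probes with differences of 0.71 and −0.51 and an SD from spots of 0.229 each. Both genes were chosen after their values were seen.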
